A study of Mus musculus with 26 samples.

Results

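The axon guidance ligands and receptors are the secreted and membrane-bound cues that steer growing axons and migrating cells, together with the receptors that read them. The set was chosen by gene symbol alone: every row of the RNA-seq tables named as an ephrin, an Eph receptor, a semaphorin, a plexin, a neuropilin, a Slit, a Robo, a netrin, an Unc5 receptor or Dcc. It held 68 of the 41442 gene rows: 14 Eph receptors, 8 ephrins, 20 semaphorins, 9 plexins, 2 neuropilins, 3 Slits, 4 Robos, 3 netrins and 5 netrin receptors. The filter on low counts left 63 of them to be tested in the fetal libraries and 62 in the uterine libraries.

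The study measured RNA in mesenchyme of the fetal mouse reproductive tract, marked by a red reporter and sorted from the mesonephros, the embryonic organ that holds the primitive genital ducts, or from the uterus. The fetal groups were Gli1+ cells of XX and XY mesonephroi on embryonic days E14.5 and E16.5, and the uterine groups were Amhr2+ and Gli1+ cells of female neonates at E19.5, with 3 RNA-seq libraries in each of the 6 groups. Gli1+ cells carried Gli1-CreER with Rosa-Tomato, so that tamoxifen switched the reporter on in cells then expressing Gli1, a target of hedgehog signalling. Amhr2+ cells carried Amhr2-Cre with Rosa-Tomato, where the recombinase is driven by the gene of the anti-Müllerian hormone receptor. All groups are listed with the same tamoxifen treatment, 1 mg per dam at E12.5 and E13.5. In both lines the reporter records past activity of the driver and need not match its present level, and the dose was given before the days on which cells were collected. Nothing in the labels says that replicates were separate litters or animals, so p-values measure only the spread between these libraries, which may be technical. The fetal Gli1+ groups also had 8 ATAC-seq samples, deposited as 1 joint list of accessible regions.

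Guidance cues work in pairs. Ephrins bind Eph receptor kinases on a neighbouring cell and signal in both directions, usually as repulsion; Slits bind Robos and repel; netrins attract through Dcc and repel through Unc5 receptors. Class 3 semaphorins are secreted and bind a neuropilin that is joined to a plexin, whereas most other semaphorins bind plexins directly. Outside the nervous system the same proteins act in vessel growth, in the sorting of cells at tissue borders and in the budding and branching of epithelial ducts next to mesenchyme.

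Accessible chromatin lay at the start of most of these genes. Of the 68 members, 60 (88.2%, 95% Wilson interval 78.5 to 93.9%, which covers counting error only) had an ATAC-seq peak within 1 kb of the gene start, and among the members tested in the fetal table the share was 58 of 63 (92.1%), beside 79% of all 17858 genes tested there. The 8 members with no such peak were Epha8, Ntn5, Plxnb3, Robo3, Robo4, Sema3a, Sema3b and Sema4a. Epha8, Sema3a, Sema3b, Sema4a and Robo4 among them were expressed well enough to be tested. Within the gene body the number of peaks ran up to 35, in Slit3, and Epha6 and Nrp2 held 17 each. The joint list carries no sample or height, so no groups were compared on it.

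The promoters of 4 members are shown because the results turn on these genes and a peak lay over each promoter: Slit2 and Efnb2 for the sexes, and Nrp2 and Epha3 for the uterus. Each sequence is the part of the RefSeq promoter window (assembly GRCm38.p6, the build also called mm10) upstream of the gene start, 5′ to 3′ on the strand of the gene. Capitals mark GGGCGG, the core of the GC box bound by Sp factors, and TATAAA, the TATA box, on either strand. The Slit2 stretch is chr5:47982905-47983137 on the plus strand, Efnb2 is chr8:8661243-8661492 on the minus strand, Nrp2 is chr1:62703067-62703284 on the plus strand and Epha3 is chr16:63864176-63864425 on the minus strand.
Slit2: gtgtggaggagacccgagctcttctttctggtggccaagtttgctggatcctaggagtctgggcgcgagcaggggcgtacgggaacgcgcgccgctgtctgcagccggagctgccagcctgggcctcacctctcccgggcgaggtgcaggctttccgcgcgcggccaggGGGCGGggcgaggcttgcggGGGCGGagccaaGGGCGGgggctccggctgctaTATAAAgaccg
Efnb2: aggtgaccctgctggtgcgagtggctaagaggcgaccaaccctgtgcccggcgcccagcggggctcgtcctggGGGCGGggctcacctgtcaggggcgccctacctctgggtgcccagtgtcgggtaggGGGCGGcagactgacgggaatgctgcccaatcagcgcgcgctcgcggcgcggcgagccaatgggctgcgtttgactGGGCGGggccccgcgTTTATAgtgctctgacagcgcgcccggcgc
Nrp2: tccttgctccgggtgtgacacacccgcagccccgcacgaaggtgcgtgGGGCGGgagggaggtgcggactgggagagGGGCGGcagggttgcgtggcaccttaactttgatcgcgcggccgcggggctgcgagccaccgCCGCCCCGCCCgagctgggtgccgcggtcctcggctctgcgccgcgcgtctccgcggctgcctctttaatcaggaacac
Epha3: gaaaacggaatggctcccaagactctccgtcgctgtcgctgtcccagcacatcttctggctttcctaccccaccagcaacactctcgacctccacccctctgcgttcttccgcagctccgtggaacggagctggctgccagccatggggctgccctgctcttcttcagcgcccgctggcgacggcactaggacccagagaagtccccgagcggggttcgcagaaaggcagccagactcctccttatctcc

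The first 3 stretches lay wholly inside an ATAC-seq peak, and 210 of the 250.0 bases of Epha3 did. Slit2 has 3 GC boxes and a TATA box whose first base is at position -28 from the RefSeq start. Efnb2 also has 3 GC boxes, with a TATA box on the other strand at -30. In Nrp2 there were 4 GC boxes, the last 2 overlapping by 1 base, and in Epha3 neither motif was found. RefSeq windows of 300 bases (250 before and 50 after a start) were at hand for 58 of the 68 members, 74 windows in all. GGGCGG was present in 52 of the 74 windows (70.3%), beside 35.7% of all 32851 windows, and TATAAA in 2 (2.70%), those of Slit2 and Efnb2, beside 13.6%. The median GC content was 64.2% in the members' windows and 52.7% in all.

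Library totals were 23382983 to 64602477 counts (fetal) and 28709191 to 37541045 counts (uterine), and the members together took 0.491 to 0.614% and 0.575 to 0.613% of them. A count of 3, taken as the detection floor, equals 0.0464 to 0.128 CPM (a count scaled to library size) in the fetal and 0.0799 to 0.104 CPM in the uterine libraries. Xist (3162 to 4172 CPM in XX and 0.372 to 16.2 CPM in XY fetal libraries) and the Y-linked Ddx3y followed the labelled sexes. Gli1 RNA itself was 183.7 to 184.3 CPM in XX and 213.0 to 246.3 CPM in XY at E14.5, and 48.5 to 54.0 against 194.0 to 220.2 CPM at E16.5. In the uterus Gli1 was 7.53 to 12.3 CPM in Amhr2+ and 16.2 to 21.2 CPM in Gli1+ cells, and Amhr2 was 7.25 to 15.8 and 3.35 to 5.23 CPM. Mesenchymal markers such as Col1a1 were abundant in every library. Of 10 markers of neurons and glia, which also use guidance genes, the summed level was 23.3 to 39.1 CPM in the fetal and 14.1 to 25.1 CPM in the uterine libraries. One library stood apart: XX library 3 at E14.5 had 979 CPM of erythroid transcripts, where the other 2 of its group had 7.45 and 26.9 CPM. Without it, 3 in place of 10 members were called between the sexes at E14.5, 15 in place of 18 for the change of the sex difference and 36 in place of 40 with age in XX. Over all genes the shares called without it were 3.58, 7.63 and 31.8%, in place of 6.28, 10 and 39.6%. Leaving out other libraries gave counts as low or lower. In turn, they were 3 without E14.5 XY library 2, 15 without E14.5 XY library 3 and 34 without E14.5 XX library 2.

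Most members were expressed. Per kilobase of exon, the scale used here to compare genes, 50 of the 68 averaged 1 CPM or more over the fetal libraries and 51 in the uterine ones. Plexins and ephrins led the fetal order: Plxnb2, a receptor of class 4 semaphorins, averaged 66.1 CPM per kb (SD 9.20 over 12 libraries), Efnb1 64.4 (SD 9.25) and the ephrin-B receptor Ephb4 48.1 (SD 3.96). That spread includes the differences between sexes and ages, and the order of the first pair changed with sex. Plxnb2 stood above Efnb1 in XX (78.7 against 70.5 at E14.5 and 62.8 against 52.6 at E16.5). In XY it stood below (67.4 against 71.9 and 55.6 against 62.6). Differences between genes were not tested. The leading semaphorin was Sema5a at 31.0 CPM per kb, and Nrp1 (17.2), Ntn1 (14.7), Unc5c (10.9) and Robo1 (8.29) led their classes. Among Slits, Slit3 led at 22.9. In both XX groups Slit2 stood above it, at 22.1 against 21.3 at E14.5 and 29.0 against 22.7 at E16.5. The Slit order rests on the exon lengths used, 25433 bases for Slit2 and 6067 bases for Slit3. In CPM, without division by length, Slit2 was above Slit3 in every fetal library (292 to 762 against 119 to 174 CPM). In the uterus Plxnb2 (59.2), Sema5a (53.1) and Ephb4 (42.2) were again the highest of their classes, Efnb3 (40.2) was the highest ephrin over both populations (Efnb2 at 43.5 and Efnb3 at 42.6 in Amhr2+ cells), and Robo2 (18.7) and Unc5b (5.23) took the lead among Robos and netrin receptors. The tables come from different library kits, so levels are ordered within each table only. Epha10, Ntn4, Ntn5, Plxnb3 and Robo3 were tested in neither table, with no library above 0.467 CPM, and Robo4, an endothelial Robo, was tested in the fetal table alone.

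**Figure D1:**
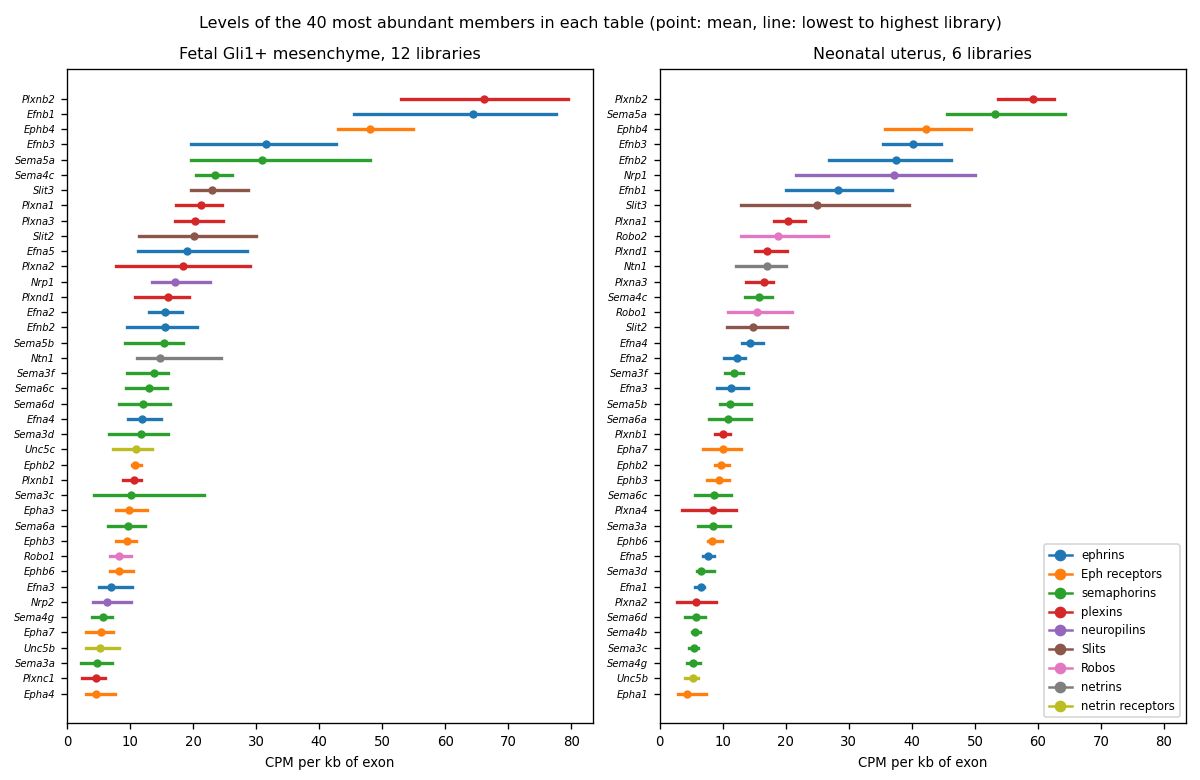
Levels of the 40 most abundant members in the fetal table (left, 12 libraries) and the uterine table (right, 6 libraries), in CPM per kb of exon on a linear axis from 0; points are means over libraries, lines run from the lowest to the highest library, and colours mark the 9 classes. Plxnb2 heads both panels at 66.1 and 59.2 CPM per kb, and the long lines of Sema5a, Slit2, Plxna2 and Slit3 show members that varied widely between libraries.

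The first comparison asked how XX and XY Gli1+ mesenchyme differed at E14.5. Of the 63 members, 10 (15.9%) passed the test (edgeR quasi-likelihood test, Benjamini-Hochberg adjusted p under 0.05 over all genes), 6 higher in XX and 4 higher in XY. Over all tested genes 6.28% passed (2.59% higher in XX and 3.69% higher in XY). None of the 10 reached 2-fold, which 1.49% of all genes did with a call. The median log2 fold change, XX over XY, was 0.06 over the members tested and -0.01 over all genes. In sorted bulk RNA, fewer cells of a type and less RNA per cell cannot be told apart.

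Among the cues at E14.5, Sema3e, a secreted ligand of Plxnd1, had 16.53, 17.5 and 18.2 CPM in the XX libraries and 11.4, 9.08 and 9.00 CPM in the XY libraries. Every XX library was above every XY library, with a log2 fold change of 0.83 ± 0.18 (SE, n = 3 per group, edgeR adjusted p = 0.011). Its receptor Plxnd1 was also higher in XX (137 to 141 against 107 to 119 CPM, log2 fold change 0.31 ± 0.08). So were Slit2, with 537, 557 and 593 CPM in XX and 490.1, 385 and 407 CPM in XY, and the membrane ligand Efnb2, with 123, 121 and 141 and 99.1, 100.2 and 97.7 CPM. Sema6d and Sema6a, both membrane semaphorins, were the other members higher in XX, by 0.41 and 0.30 on the log2 scale.

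On the XY side stood Epha8, an Eph receptor otherwise known mainly from the nervous system, with 11.2, 12.2 and 10.8 CPM in XX and 19.1, 21.8 and 19.46 CPM in XY. The groups did not overlap and the log2 fold change was -0.82 ± 0.12 (edgeR adjusted p = 0.00053). Sema3c (31.1 to 40.5 against 53.6 to 60.5 CPM), the semaphorin receptor Plxna2 (373 to 395 against 473 to 498) and the netrin receptor Unc5b (36.4 to 38.7 against 42.4 to 52.1) were also lower in XX, without overlap. These calls rested on few libraries. The count of 10 became 5 without XX library 1, 5 without XX library 2, 3 without XX library 3, 3 without XY library 2, 5 without XY library 3 and 12 without XY library 1, and only Efnb2, Epha8 and Sema6d were called each time. Over all genes the share called moved likewise, from 6.28% to 3.17, 3.61, 3.58, 3.76, 3.03 and 9.2% in the same order. Leaving out 1 library gave adjusted p-values up to 0.072 for Sema3e and Slit2 (XX library 3, XY libraries 2 and 3), up to 0.14 for Sema3c and Plxna2 (each of the 6 libraries in turn), up to 0.14 for Plxnd1 and Sema6a (each but XY library 1) and up to 0.15 for Unc5b (each XX library, XY library 2).

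At E16.5 the sexes differed in far more of these genes. Of the 63 members, 40 passed the test (63.5%), 31 higher in XX and 9 higher in XY, beside 27.3% of all tested genes (13.2% higher in XX and 14.1% higher in XY). The median log2 fold change was 0.31 over the members tested and 0.01 over all genes. At least 2-fold calls numbered 9, of which 6 were higher in XX (Epha6, Plxna4, Dcc, Robo4, Slit2 and Epha7) and 3 higher in XY (Epha8, Ephb1 and Sema3c), beside 7.02% of all genes. Of the 10 members called at E14.5, 9 were called at E16.5 in the same direction (90% of the earlier and 22.5% of the later calls), from libraries that the 2 comparisons do not share. Over all genes, 71.3% of the earlier and 16.4% of the later calls were in both, 89.2% of them in the same direction. The exception was Unc5b, at -0.18 ± 0.09 with an edgeR adjusted p of 0.15 at E16.5. All these counts come from the fit of group means without pairing. With the replicate number as a block, 44 members were called at E16.5 (32 higher and 12 lower in XX), beside 33% of all genes.

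**Figure D2:**
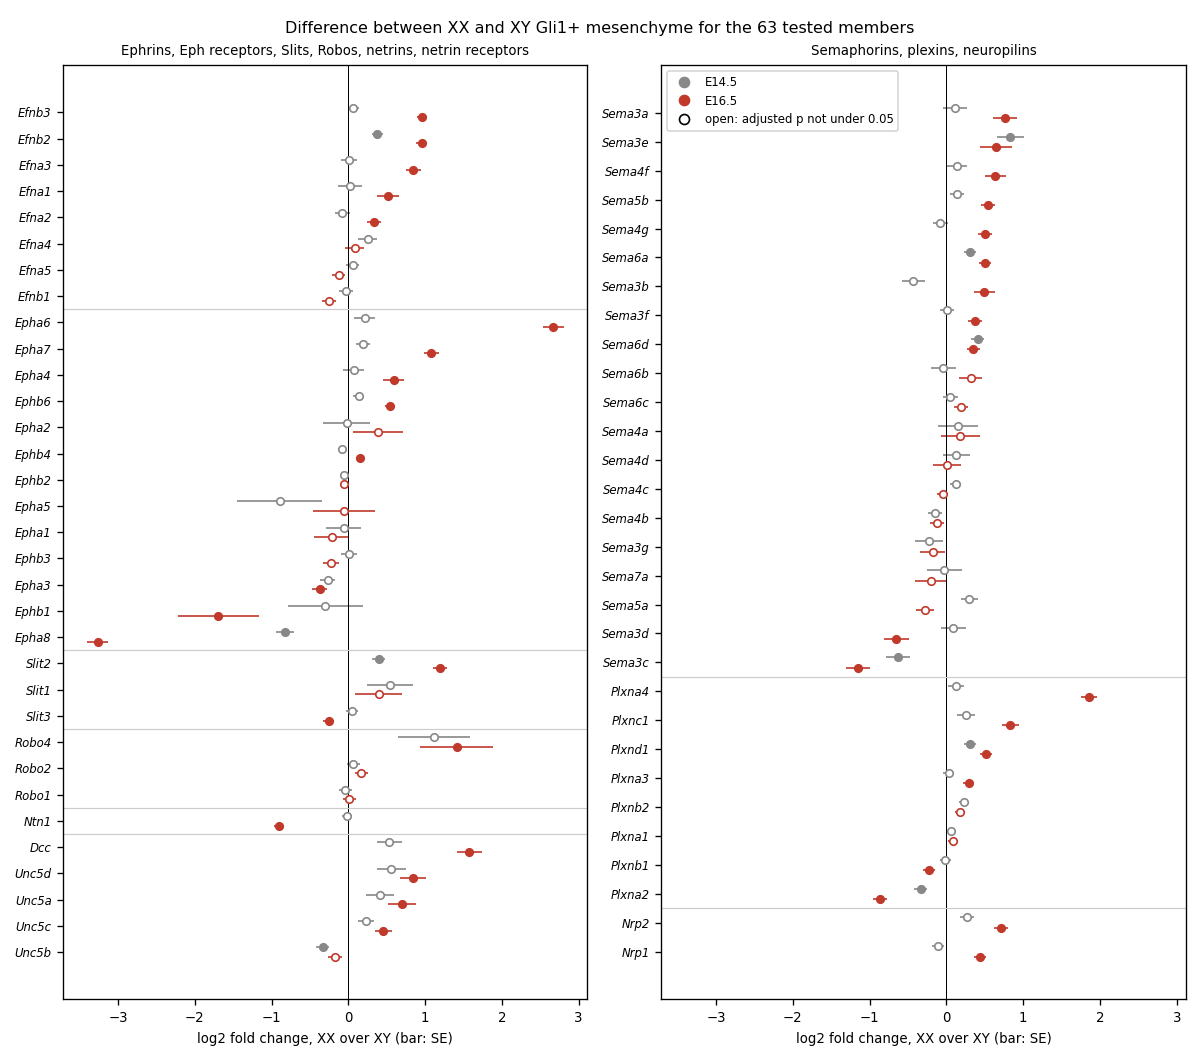
Log2 fold change, XX over XY, of the 63 tested members at E14.5 (grey) and E16.5 (red) on a linear log2 axis; bars are standard errors, filled points have an edgeR adjusted p under 0.05 and open points do not, and lines separate the classes. At E14.5 the points gather near 0 with 10 filled, whereas at E16.5 the 40 filled points spread from -3.27 for Epha8 to 2.67 for Epha6.

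The ephrins called all differed one way. Of the 8, 5 were higher in XX at E16.5 (Efna1, Efna2, Efna3, Efnb2 and Efnb3) and none was lower. Efnb2, the ligand of Ephb4 where arteries meet veins, had 121, 140.3 and 133 CPM in XX and 66.6, 65.5 and 71.8 CPM in XY. Its lowest XX library was well above its highest XY library, and the log2 fold change was 0.95 ± 0.07 (adjusted p = 1.0e-07). Efnb3 was also higher in XX, with 130.0, 136 and 124 CPM against 73.9, 64.0 and 62.6 CPM and a log2 fold change of 0.96 ± 0.07. For the glycolipid-anchored Efna3 the values were 23.8, 23.5 and 25.01 CPM in XX and 14.9, 13.1 and 12.2 CPM in XY. The calls of Efna1 (adjusted p up to 0.091, without XX library 2 or XY libraries 2 or 3) and Efna2 (up to 0.081, without XX library 2 or XY library 3) did not hold with each library left out. The X-linked Efnb1, the most abundant ephrin, had 195, 192 and 157 CPM in XX and 243, 208 and 197 CPM in XY (log2 fold change -0.25 ± 0.09, adjusted p = 0.051). With the replicate number as a block, its adjusted p was 0.00629, a fit that also called Ephb3 (0.0131), Plxnb2 (0.035) and Sema5a (0.0156), for 44 calls in all.

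Eph receptors split. Of 13 tested, 5 were higher in XX (Epha6, Epha7, Epha4, Ephb6 and Ephb4) and 3 were lower (Epha8, Ephb1 and Epha3). Epha6 differed most towards XX of all members: 32.9, 33.2 and 34.7 CPM in the XX libraries and 4.55, 6.73 and 4.65 CPM in the XY libraries. All 3 XX libraries lay within 2 CPM of one another and far above XY, and the log2 fold change was 2.67 ± 0.13 (adjusted p = 1.1e-09), or 6.37-fold as fitted. Epha8 differed most towards XY, at 1.96, 2.36 and 1.89 CPM in XX and 18.8, 23.7 and 17.4 CPM in XY, a log2 fold change of -3.27 ± 0.14 or 9.62-fold as fitted. Both are receptors of the A type, which bind mainly the anchored ephrins; they differed in opposite directions, and neither was at 0 in any library. Epha7 had 68.2, 71.9 and 71.8 CPM in XX and 29.3, 39.1 and 31.7 CPM in XY (log2 fold change 1.08 ± 0.09), and Epha4 49.96, 54.3 and 60.8 and 27.4, 40.8 and 41.2 CPM (0.59 ± 0.13). The abundant Ephb2 (129 to 137 and 133 to 143 CPM, -0.05 ± 0.06) did not pass the test. Ephb1 stayed under 1 CPM in every fetal library, and its adjusted p of 0.027 reached 0.1 without XX libraries 1 or 3 or XY libraries 1 or 3. Ephb4 had 245 to 254 against 222 to 228 CPM, a log2 fold change of 0.15 ± 0.05, and its adjusted p reached 0.15 with 1 library left out (each one but XY library 1) and 0.0544 when scaled by library size alone.

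**Figure D3:**
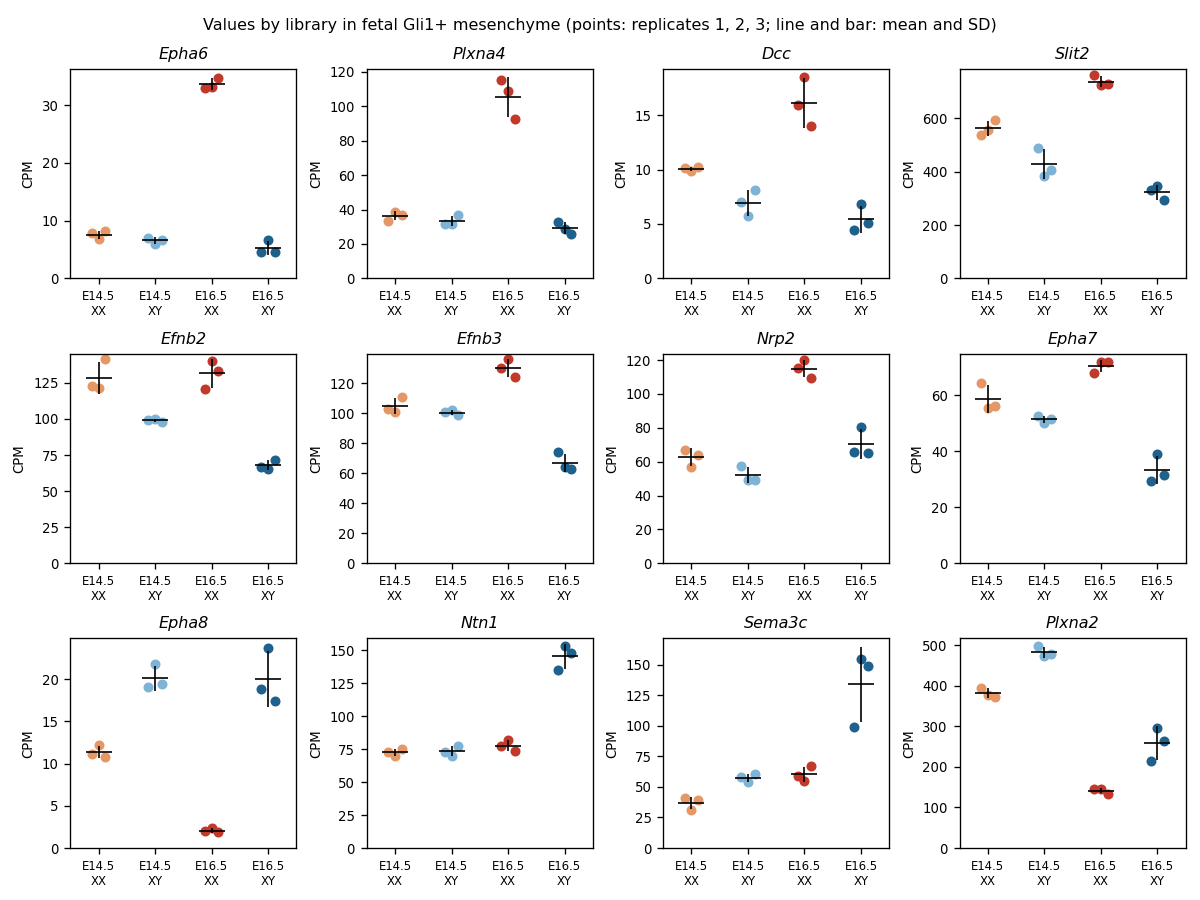
CPM by library for 12 members in the 4 fetal Gli1+ groups, each panel on its own linear axis from 0; points are replicates 1, 2 and 3 from left to right, and the line and bar are the mean and SD. Epha6 and Plxna4 stand highest in the E16.5 XX group (means 33.6 and 105.4 CPM), Ntn1 and Sema3c stand highest in the E16.5 XY group, and Epha8 is low in E16.5 XX (mean 2.07 CPM).

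Of the Slits, the repellent ligands of Robos, Slit2 was higher in XX at E16.5 and Slit3 was lower. Slit2 had 762, 723 and 727 CPM in XX and 329, 348 and 292 CPM in XY. Every XX library held more than 2-fold the CPM of every XY library, and the log2 fold change was 1.19 ± 0.09 (adjusted p = 7.4e-08). Slit3 went the other way by a small amount, 131, 154 and 128 CPM in XX and 163, 174 and 155 CPM in XY (-0.25 ± 0.07, adjusted p = 0.017, up to 0.078 without XX libraries 1 or 3 or XY library 2). Their receptors Robo1 (144 to 157 and 129 to 168 CPM) and Robo2 (76.4 to 81.4 and 59.1 to 76.9 CPM) overlapped between the sexes, with log2 fold changes of 0.01 ± 0.09 and 0.17 ± 0.08 that did not pass the test. Robo4 was called higher in XX at 0.416 to 0.665 against 0.0969 to 0.320 CPM, a level at which its adjusted p of 0.038 rose to 0.18 with 1 library left out (each but XY library 2). The summed level of 10 endothelial markers was 72.1 to 84.6 CPM in XX and 86.6 to 96.1 CPM in XY. The list itself split: of 8 tested, Tie1 and Emcn were called higher in XX and Cdh5 and Kdr lower. Its median log2 fold change was 0.31.

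The netrin system changed on both sides. Ntn1, the secreted netrin, had 77.2, 82.2 and 73.7 CPM in XX and 135, 153 and 148 CPM in XY at E16.5. Every XX library was below every XY library (log2 fold change -0.90 ± 0.07, adjusted p = 7.4e-08). Of the 5 netrin receptors, 4 were higher in XX. Dcc, the attractive receptor, had 15.9, 18.5 and 13.97 CPM in XX and 4.43, 6.81 and 5.06 CPM in XY, a log2 fold change of 1.58 ± 0.16. Unc5c, the most abundant of them, had 228, 207 and 205 CPM against 139, 178 and 149 CPM (0.46 ± 0.11), and the much lower Unc5d and Unc5a were higher by 0.84 and 0.70 on the log2 scale.

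Both neuropilins and 4 of 8 plexins were higher in XX at E16.5. Nrp2, a co-receptor of class 3 semaphorins, had 116, 119.9 and 109.5 CPM in XX and 65.6, 80.4 and 65.2 CPM in XY, and Nrp1 had 219.6, 222 and 221 and 147, 182 and 160.0 CPM. Neither overlapped between the sexes, and the log2 fold changes were 0.71 ± 0.09 and 0.44 ± 0.08. Plxna4, which joins neuropilins to read Sema3a, had 115, 109 and 92.4 CPM in XX and 32.8, 28.7 and 26.0 CPM in XY. Among the members it followed Epha6 in its log2 fold change towards XX (1.86 ± 0.10, adjusted p = 3.4e-09). Plxnc1 (0.83), Plxnd1 (0.51) and the X-linked Plxna3 (0.29) followed at smaller log2 fold changes. Plxna2 ran against them, with 147, 145 and 134 CPM in XX and 214, 296 and 264 CPM in XY (-0.86 ± 0.09). Plxnb1 was called lower in XX by a log2 fold change of -0.23, with an adjusted p of up to 0.13 when XX libraries 1 or 3 or XY libraries 1 or 2 were left out.

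Of the 20 semaphorins, 9 were higher and 2 lower in XX. The class 3 ligands went both ways: Sema3a, Sema3b, Sema3e and Sema3f were higher in XX, Sema3c and Sema3d were lower, and Sema3g (-0.18 ± 0.16) did not pass the test. Sema3c had 58.6, 54.6 and 67.3 CPM in XX and 98.7, 155 and 149 CPM in XY. The XY spread was wide, yet its lowest library exceeded every XX library (log2 fold change -1.16 ± 0.16, adjusted p = 0.00015). Sema3a, the classical repellent, had 64.2, 60.1 and 57.6 CPM in XX against 45.3, 31.6 and 30.6 CPM in XY (0.76 ± 0.15). Among membrane semaphorins Sema4f, Sema4g, Sema5b, Sema6a and Sema6d were higher in XX, with log2 fold changes from 0.35 to 0.64. The calls of Sema3b (adjusted p = 0.073 without XY library 3) and Sema3e (up to 0.19 without XX libraries 1 or 2 or XY libraries 2 or 3) did not hold with each library left out.

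Smooth muscle markers moved with these differences. The summed level of 7 of 7 markers was 549.5 to 653.6 CPM in XX and 1843 to 3039 CPM in XY at E16.5, and 389.2 to 415.9 against 700.3 to 998.4 CPM at E14.5, with none at 0 in any group. The sums of other lists also separated the sexes without overlap. At E16.5 the sums in XX and XY were 24.4 to 32.9 and 33.8 to 41.2 CPM for 10 epithelial markers, 59.7 to 65.6 and 77.9 to 83.2 CPM for 10 markers of gonad somatic cells, 29.6 to 55.8 and 14.98 to 19.7 CPM for 8 erythroid markers and 0.834 to 1.298 and 1.95 to 2.59 CPM for 6 germ cell markers. At E14.5 they were 31.3 to 35.7 and 45.7 to 54.2 CPM for epithelium and 53.0 to 55.2 and 59.4 to 67.1 CPM for gonad somatic cells. Germ cell sums were 0.995 to 1.52 and 1.92 to 3.14 CPM, and those of 8 immune markers 61.4 to 68.4 and 42.7 to 58.9 CPM. At E16.5 the immune sums overlapped, at 34.2 to 81.0 and 14.2 to 48.6 CPM. Of the 8 immune genes, 5 were called higher in XX at that age and none lower. Of 10 epithelial genes only Krt18 was called at E16.5, lower in XX, and the list median log2 fold change was 0.0003. Of 7 gonad genes tested, Nr5a1 and Foxl2 were called lower, and Foxl2 alone averaged 34.28 CPM in XX and 52.25 CPM in XY. None of 7 erythroid genes tested was called, and of 3 germ cell genes Dazl and Ddx4 were lower. At E14.5 Krt18, Foxl2 and Ddx4 were called lower in XX, and Lyz2 and Cx3cr1 higher. The steroid enzyme genes Hsd3b1 (XX) and Cyp17a1 (XY) were at 0 at E16.5, and the germ cell gene Dppa3 was at 0 in every fetal group. The part of these cells in the results was not tested.

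A direct test of whether the sex difference changed from E14.5 to E16.5 (the interaction of sex and age) called 18 of the 63 members, 14 with a shift towards XX and 4 with a shift towards XY, beside 10% of all tested genes (4.66% and 5.36%). The median was 0.20 over the members tested and 0.02 over all genes. The 4 largest shifts towards XX were those of Epha6 (2.46 ± 0.19), Plxna4 (1.73 ± 0.14), Dcc (1.05 ± 0.22) and Sema3b (0.92 ± 0.20), on the log2 scale. The 4 shifts towards XY were those of Epha8 (-2.44 ± 0.18), Ntn1 (-0.89 ± 0.09), Sema5a (-0.58 ± 0.16) and Plxna2 (-0.53 ± 0.13). The Sema5a call was lost in 9 of the 12 fits with 1 library left out (adjusted p up to 0.1; kept without E14.5 XX library 2, E14.5 XY library 1 and E16.5 XY library 1). With the replicate number as a block, 27 members were called (21 towards XX and 6 towards XY, beside 2592 of all 17858 genes), among them all 18. It added Sema3d (-0.76, adjusted p = 0.0075) and Slit3 (-0.31, adjusted p = 0.017) towards XY, and Efna2, Epha4, Ephb4, Plxna3, Sema3a, Sema3f and Sema5b towards XX. The other 10 shifts towards XX lay between 0.41 and 0.90. Which sex moved differed from gene to gene. Epha6 went from 7.82, 6.81 and 8.15 to 32.9, 33.2 and 34.7 CPM in XX and from 7.07, 5.91 and 6.73 to 4.55, 6.73 and 4.65 CPM in XY. Only the XX change passed the test (2.14 ± 0.13, and -0.31 ± 0.14 with an adjusted p of 0.12 in XY). Plxna4 rose likewise from 36.5 ± 2.68 to 105 ± 11.8 CPM in XX (SD, n = 3) and was 33.4 ± 3.07 and 29.2 ± 3.41 CPM in XY.

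Epha8 changed in the same sex but downwards. It fell from 11.2, 12.2 and 10.8 CPM to 1.96, 2.36 and 1.89 CPM in XX (-2.45 ± 0.14), while XY held 19.1, 21.8 and 19.46 and 18.8, 23.7 and 17.4 CPM (-0.01 ± 0.11, adjusted p = 0.96). Ntn1 changed in XY: 72.7, 69.9 and 77.5 CPM at E14.5 and 135, 153 and 148 CPM at E16.5 (0.99 ± 0.07, adjusted p = 4.5e-08), against 73.0, 69.8 and 74.8 and 77.2, 82.2 and 73.7 CPM in XX (0.10 ± 0.07, adjusted p = 0.26). Efnb2 likewise fell in XY (-0.54 ± 0.07) and was 0.03 ± 0.07 in XX, which did not pass. Slit2, Efnb3 and Epha7 moved in opposite directions in the sexes and each change passed its test: Slit2 by 0.39 ± 0.09 in XX and -0.40 ± 0.09 in XY, Efnb3 by 0.31 ± 0.07 and -0.59 ± 0.07, and Epha7 by 0.27 ± 0.09 and -0.62 ± 0.09. The XX change of Epha7 lost its call with 1 library left out (adjusted p 0.071 to 0.12 without E14.5 XX libraries 2 or 3 or E16.5 XX libraries 2 or 3) and with the replicate block (0.0547).

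**Figure D4:**
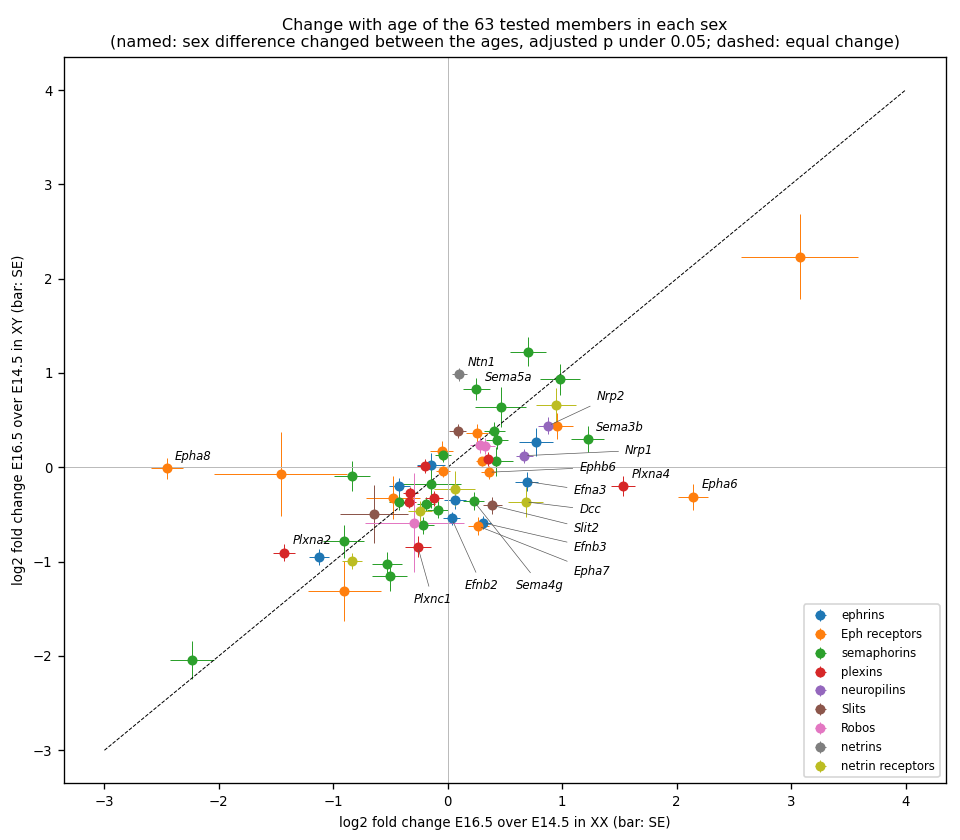
Log2 fold change from E14.5 to E16.5 in XX (horizontal) and in XY (vertical) for the 63 tested members, coloured by class; bars are standard errors, the dashed line marks equal change, and names are given to the 18 members whose sex difference changed between the ages. Epha6 and Plxna4 lie far right near 0 on the vertical axis, Epha8 far left near 0, and Ntn1 high near 0 on the horizontal axis.

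With age, 40 of the 63 members changed in XX (25 up and 15 down), beside 39.6% of all tested genes (21% up and 18.6% down), and 36 changed in XY (13 up and 23 down), beside 23.3% (13.1% up and 10.2% down). When libraries were scaled by their size alone, the split over all genes in XY was 10.3% up and 14.8% down, and over the members 11 up and 23 down. The median log2 change of the members was 0.06 in XX and -0.18 in XY, where all genes had 0.00 and -0.01. The 2 contrasts share no library. They had 23 called members in common (57.5% of the XX and 63.9% of the XY calls), 20 of them in the same direction, the exceptions being Slit2, Efnb3 and Epha7. Over all genes the calls in common were 39.8% of the XX and 67.4% of the XY calls, 93.3% of them in the same direction. Marker lists also differed between the ages without overlap. Mesenchymal markers summed to 41640 to 43700 CPM at E14.5 and 59220 to 68760 CPM at E16.5 in XX. In XY they summed to 36100 to 41880 and 48850 to 60870 CPM. In each sex 6 mesenchymal genes were called higher and 2 lower at E16.5. Endothelial sums were 119 to 133 and 72.1 to 84.6 CPM in XX and 107 to 121 and 86.6 to 96.1 CPM in XY. The endothelial genes called in XY split, 2 higher and 2 lower at E16.5. Gonad somatic sums were 53.0 to 55.2 and 59.7 to 65.6 CPM in XX and 59.4 to 67.1 and 77.9 to 83.2 CPM in XY. Of 7 gonad genes tested in XX, 2 were called higher and 4 lower at E16.5. In XY Foxl2 was called higher (means 26.67 and 52.25 CPM), Sox9 and Star were called lower, and the list median log2 change was -0.07. Epithelial sums differed without overlap in XY alone, at 45.7 to 54.2 and 33.8 to 41.2 CPM, with Esrp1 called higher and Krt18 and Krt8 lower at E16.5. The smooth muscle sums were higher at E16.5 in both sexes, and the part of these cells in the age changes was not tested.

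Among the shared changes, Sema3e fell steeply in both sexes, from 16.53, 17.5 and 18.2 to 3.70, 4.73 and 2.68 CPM in XX and from 11.4, 9.08 and 9.00 to 3.12, 1.92 and 2.08 CPM in XY. The ages did not overlap in either sex (log2 changes -2.23 ± 0.19 and -2.04 ± 0.20). Epha5 rose in both from a low level, 1.60, 0.995 and 0.760 to 6.32, 16.8 and 5.48 CPM in XX and 1.77, 2.21 and 2.25 to 9.39, 13.2 and 7.32 CPM in XY, with wide spread between the E16.5 libraries. Plxna2 (-1.43 ± 0.09 in XX and -0.90 ± 0.09 in XY) and the anchored ligand Efna5 (-1.12 ± 0.08 and -0.95 ± 0.08) fell in both. Sema3c (0.70 ± 0.16 and 1.23 ± 0.16) and Sema3g (0.98 ± 0.17 and 0.93 ± 0.17) rose in both. Nrp2 also rose (0.88 ± 0.09 in XX and 0.44 ± 0.09 in XY), and Unc5b fell (-0.84 ± 0.09 and -0.99 ± 0.09). Robo1 (0.28) and Robo2 (0.33) rose in XX, and their XY changes of 0.23 and 0.22 had adjusted p-values of 0.062 and 0.065. The Robo1 call in XX had adjusted p-values of 0.07 and 0.089 without E14.5 XX library 2 and without E16.5 XX library 2.

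By class, 5 of 8 plexins fell in XY and none rose (Plxna1, Plxna2, Plxnb2, Plxnc1 and Plxnd1), while in XX 4 fell and 2 rose (Plxna3 and Plxna4). Of 8 ephrins, 4 fell in XY (Efna2, Efna5, Efnb2 and Efnb3) and none rose, and in XX 3 rose and 2 fell. Of 20 semaphorins, 9 fell in XY and 6 rose, against 6 and 6 in XX. Of the Eph receptors 7 rose and 2 fell in XX, and 3 rose and 2 fell in XY. Sema3a, Sema4f and Epha2 were among the largest falls in XY: Sema3a went from 98.4, 69.7 and 71.5 to 45.3, 31.6 and 30.6 CPM (-1.15 ± 0.16), Sema4f had 5.34 to 5.72 CPM at E14.5 and 2.32 to 3.12 CPM at E16.5 (-1.03 ± 0.13) and Epha2 had 20.8 to 38.6 and 7.19 to 15.5 CPM (-1.31 ± 0.32, adjusted p = 0.05 without E16.5 XY library 2). In XX the corresponding changes were -0.51, -0.53 and -0.90. The XX calls of Sema3a (adjusted p up to 0.07 without E14.5 library 1 or E16.5 libraries 2 or 3) and Epha2 (up to 0.14 without any library but E16.5 library 3) did not hold with each library left out.

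The uterine comparison set Amhr2+ against Gli1+ mesenchyme of the neonatal uterus. Here 27 of 62 tested members passed the test (43.5%), 6 higher and 21 lower in Amhr2+ cells, beside 23.9% of all 16195 genes tested (10.1% higher and 13.7% lower). When libraries were scaled by their size alone, the split was 17.6% higher and 10.1% lower over all genes, and 8 higher and 18 lower over the members. The median log2 fold change, Amhr2+ over Gli1+, was -0.11 over the members tested and 0.00 over all genes. All 10 calls of at least 2-fold (6.53% of all genes) were lower in Amhr2+ cells.

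Slits and their receptors went opposite ways in the uterus. Robo1 had 319.9, 314 and 346 CPM in Amhr2+ cells and 185, 178 and 179 CPM in Gli1+ cells. Robo2 had 433, 454 and 347 CPM and 227, 218 and 226 CPM. Neither receptor overlapped between the populations, with log2 fold changes of 0.85 ± 0.06 and 0.88 ± 0.10 (adjusted p = 6.0e-05 and 0.0005). Slit2 had 282, 286 and 270.0 CPM in Amhr2+ cells and 459, 512 and 448 CPM in Gli1+ cells, and Slit3 had 79.1, 78.3 and 78.8 and 237, 240.1 and 192 CPM. Both ligands were lower in every Amhr2+ library than in any Gli1+ library, with log2 fold changes of -0.76 ± 0.07 and -1.50 ± 0.09, while Slit1 stayed under 1 CPM throughout.

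Both semaphorin co-receptors were lower in Amhr2+ than in Gli1+ cells. Nrp2 had 11.4, 11.0 and 9.49 CPM there and 82.7, 75.7 and 66.0 CPM in Gli1+ cells, a fitted difference of 7.01-fold (log2 fold change -2.81 ± 0.11, adjusted p = 3.8e-06). Nrp1 had 281, 309 and 211 and 428, 463 and 489 CPM (-0.78 ± 0.13). Of 8 plexins, 4 were lower and none higher: Plxnc1 (12.8, 13.7 and 13.0 against 43.2, 44.3 and 40.1 CPM, -1.69 ± 0.08), Plxna2 (-1.50 ± 0.11), Plxna4 (-1.03 ± 0.24) and Plxnd1 (-0.29 ± 0.07). For Plxna4 the Amhr2+ libraries ranged widely, 85.3, 101 and 50.3 CPM against 168, 171 and 145 CPM, and its adjusted p of 0.027 became 0.072 to 0.082 without Amhr2+ library 1 or Gli1+ libraries 1 or 2, and 0.116 with no filter on low counts. The Plxnd1 call was lost without Amhr2+ libraries 1 or 2 or Gli1+ library 1 (up to 0.092) and when scaled by library size alone (0.0802). Of the 20 semaphorins, Sema3a (142, 139 and 154 against 83.0 to 97.5 CPM, 0.72 ± 0.08) and Sema5a were higher in Amhr2+ cells, and Sema6a (-0.76 ± 0.06), Sema6c (-0.82 ± 0.08), Sema6d (-0.61 ± 0.09) and Sema5b were lower. The calls of Sema5a (0.30 ± 0.08, adjusted p up to 0.077) and Sema5b (-0.36 ± 0.10, up to 0.092) did not hold without Amhr2+ library 1 or without Gli1+ libraries 1 or 2, nor Sema5a without Gli1+ library 3 or Sema5b without Amhr2+ libraries 2 or 3, and Sema5b was also lost when scaled by library size alone (0.085).

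**Figure D5:**
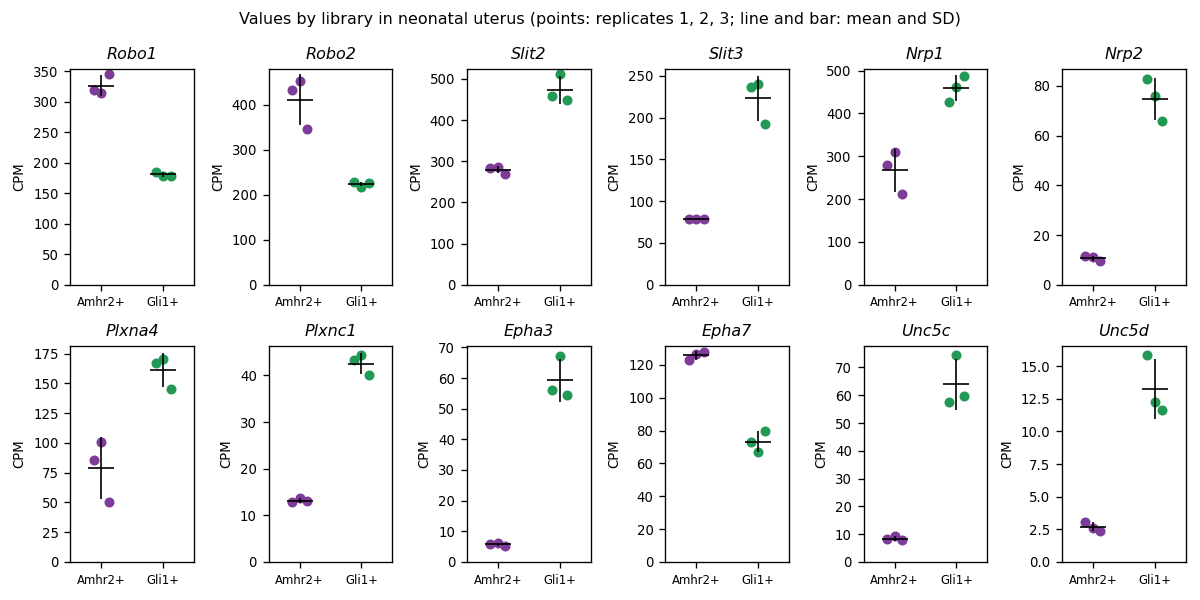
CPM by library for 12 members in Amhr2+ (purple) and Gli1+ (green) mesenchyme of the neonatal uterus, each panel on its own linear axis from 0; points are replicates 1, 2 and 3 from left to right, and the line and bar are the mean and SD. Robo1, Robo2 and Epha7 are higher in all 3 Amhr2+ libraries, and the other 9 members are higher in all 3 Gli1+ libraries, with Epha3 at 5.29 to 6.12 against 54.4 to 67.4 CPM.

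Of 8 Eph receptors of the A type, 3 were lower and 1 was higher in Amhr2+ cells. Epha3 had 5.73, 6.12 and 5.29 CPM in Amhr2+ cells and 56.2, 67.4 and 54.4 CPM in Gli1+ cells, the largest of all members at 10.4-fold as fitted (log2 fold change -3.37 ± 0.11, adjusted p = 2.2e-06). Epha5 (0.752, 0.971 and 0.305 against 6.76, 2.69 and 4.46 CPM, -2.74 ± 0.45) and Epha6 (1.06, 0.728 and 0.847 against 3.93, 4.77 and 4.70 CPM, -2.34 ± 0.21) were lower too, at levels of a few CPM. Epha7 was the exception, with 123, 127 and 128 CPM in Amhr2+ cells and 72.9, 67.1 and 79.7 CPM in Gli1+ cells. All 3 of its Amhr2+ libraries exceeded all 3 Gli1+ libraries (0.78 ± 0.07). Epha8 was 0.351 to 0.570 and 0.124 to 0.596 CPM here and did not pass the test. Among ephrins Efnb2 was higher in Amhr2+ cells (289, 288 and 317 against 239, 184 and 226 CPM, 0.46 ± 0.10), while Efna3 (-0.53 ± 0.08) and Efnb1 (-0.70 ± 0.08) were lower, as was Ephb4, the receptor of Efnb2 (-0.32 ± 0.07).

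Of the repulsive netrin receptors, 2 were much lower in Amhr2+ cells. Unc5c had 8.09, 9.33 and 7.76 CPM in Amhr2+ cells and 57.5, 74.4 and 59.8 CPM in Gli1+ cells (-2.93 ± 0.12, adjusted p = 5.0e-06), and Unc5d had 3.09, 2.62 and 2.41 and 15.9, 12.2 and 11.7 CPM (-2.29 ± 0.17). In both, the highest Amhr2+ library was far below the lowest Gli1+ library. Dcc (14.9 to 22.4 and 13.1 to 16.1 CPM), Unc5a and Unc5b did not pass the test. Ntn1 was 98.2, 101 and 76.1 CPM in Amhr2+ cells and 121, 125 and 117 CPM in Gli1+ cells (-0.40 ± 0.10), a call lost without Gli1+ libraries 1 or 2 (adjusted p = 0.067 and 0.072) and when scaled by library size alone (0.0547).

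The sums of other marker lists differed between the uterine populations. The summed level of the 10 mesenchymal markers was 27640 to 29660 CPM in Amhr2+ and 57720 to 65030 CPM in Gli1+ cells, of 10 epithelial markers 73.4 to 75.6 against 32.9 to 45.4 CPM, of 7 smooth muscle markers 1302 to 1938 against 2276 to 2532 CPM, and of 10 endothelial markers 36.7 to 41.3 against 47.2 to 55.8 CPM, with no gene of these lists at 0 in either group. The sum of 8 erythroid markers was 1.75 to 2.54 against 7.84 to 8.67 CPM, with Hbb-y and Hba-x at 0, and of 6 germ cell markers 0.644 to 1.13 against 5.49 to 6.84 CPM, with Dppa3 and Mael at 0 in both groups and Pou5f1 at 0 in Gli1+ cells. By gene, 7 of 10 mesenchymal genes were called lower in Amhr2+ cells, and 4 of 9 epithelial genes tested were called higher. Of 7 smooth muscle genes only Actg2 and Acta2 were called, both lower. The endothelial list split, with Sox17 called higher and Tek, Tie1 and Emcn lower. All 3 erythroid genes tested and the 1 germ cell gene tested, Ddx4, were called lower. The part of these cell types in the results was not tested.

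The fetal sex comparison at E16.5 and the uterine comparison share no library, and their calls met in 21 members, 53.8% of the 39 fetal and 77.8% of the 27 uterine calls among the members tested in both. In 14 of the 21 the sign was opposite, and each of these was higher in fetal XX and lower in uterine Amhr2+ cells: Efna3, Epha6, Ephb4, Nrp1, Nrp2, Plxna4, Plxnc1, Plxnd1, Sema5b, Sema6a, Sema6d, Slit2, Unc5c and Unc5d. The other 7 had the same sign: Efnb2, Epha7 and Sema3a were higher in both, and Epha3, Ntn1, Plxna2 and Slit3 were lower in both. Over all genes the calls met in 36.6% of the fetal and 44% of the uterine calls, 57.3% of them with opposite sign, and 35.7% were higher in fetal XX and lower in Amhr2+ cells. For Slit2 the log2 fold changes were 1.19 and -0.76, for Nrp2 0.71 and -2.81, and for Plxna2 -0.86 and -1.50.

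Other genes of the pathway, a list of 60 co-receptors, adhesion partners and intracellular effectors taken from textbook knowledge, gave 27 calls of 59 tested at E16.5 (13 higher and 14 lower in XX, beside 27.3% of all genes called), 11 of 59 at E14.5 (5 and 6, beside 6.28%) and 18 of 59 in the uterus (6 higher and 12 lower in Amhr2+, beside 23.9%). Their median log2 fold change was -0.09, -0.01 and -0.03 in turn. Srgap1 and Srgap3, which act downstream of Robos, were higher in XX at E16.5 (0.59 ± 0.08 and 0.75 ± 0.09) and lower in uterine Amhr2+ cells (-2.66 ± 0.24 and -1.13 ± 0.11). Srgap1 had 8.34 ± 0.396 CPM in Amhr2+ and 52.9 ± 18.2 CPM in Gli1+ cells (SD, n = 3). Flrt1, Flrt2 and Flrt3, adhesion proteins that bind Unc5 receptors, were all higher in XX at E16.5 (1.05 ± 0.13, 0.44 ± 0.07 and 0.66 ± 0.13). Draxin, a secreted ligand of Dcc, was higher in XX as well (10.6 ± 3.50 against 4.42 ± 1.69 CPM, 1.24 ± 0.26). Dpysl3, a mediator of semaphorin signals, had 103 ± 3.94 CPM in XX and 210.5 ± 9.29 CPM in XY (-1.03 ± 0.06), and Nrcam and Gpc1 were also lower in XX (-1.60 ± 0.17 and -0.77 ± 0.06). Neo1, a relative of Dcc that also binds netrins, was 394 ± 23.9 and 395 ± 20.6 CPM and did not pass the test in that comparison.

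For 35 of the 68 members another gene of the tables lies over the same stretch of chromosome, and for 17 an exon of another gene overlaps theirs, among them Epha6, Plxna4 (with the antisense transcript Plxna4os3), Plxnc1, Unc5c, Efna3, Ephb4 and Nrp1. The fetal libraries do not mark strand, so reads from these pairs cannot be told apart there, and values of the 17 are uncertain to that extent. The uterine kit marks strand, but whether the counting used it is not given in the sources used here.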

How the data were processed

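RNA was measured by RNA-seq in 12 fetal and 6 uterine libraries, grouped by the sample titles. The authors deposited 1 table of unnormalised read counts per gene for each tissue, on mm10 coordinates per the file headers. Per the submitters' processing notes the tools included STAR 2.5 and featureCounts of Subread 1.5.0-p1, and for ATAC-seq Bowtie 1.2, SAMtools 1.3.1, Picard, bedtools 2.24.0 and MACS2 2.1.1. Annotation version and use of strand in counting are not given in the sources used here. Per the labels' protocols, fetal libraries used a non-stranded and uterine libraries a stranded kit, so the tables were fitted apart. The ATAC-seq list deposited by the authors has 71040 peak positions with no sample column, signal or score.

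Differences were tested in R 4.3.3 with edgeR 4.0.16 (quasi-likelihood F-test): filterByExpr by group, TMM scaling, robust estimation, Benjamini-Hochberg adjustment over all tested genes and a threshold of 0.05. The 6 contrasts came from 1 model of 4 fetal groups and 1 of 2 uterine groups. CPM values are on TMM-scaled library sizes. CPM per kb divides by the length of all exons of a gene in the GENCODE annotation, with overlapping stretches counted once. That annotation need not be the version used for counting. Of the 41442 rows, 64 repeat a symbol and none lacks a gene. Member rows were found by symbol. Floors and intervals cover counting error only. The scripts were tested on simulated data.

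Members given with a value in every library were, per contrast, the 4 with the largest change in each direction among those with an adjusted p under 0.05, no overlap of CPM between groups and at least 2 CPM in the higher group (for the change of the sex difference, at least 2 CPM in the highest group). The member with the highest CPM per kb of each class was also named, and further members serve as examples. The members and lists were chosen with earlier results of these data known.

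Replicate numbers are shared across groups. At E16.5 the deviations of same-numbered XX and XY libraries from their group means, over all tested genes, correlated at 0.284, 0.115 and 0.396. The numbers were therefore taken to pair those libraries, on the data alone, since no label gives a reason for the pairing. The main fits did not use this pairing. They compared group means only, also at E16.5, and the fit with the replicate number as a block is given as an alternative. In the other comparisons not every such correlation exceeded 0.1. Alternatives were a replicate block, DESeq2 1.42.0, other scalings, no filter on low counts, only the libraries compared and each library left out.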

Additional observations from a re-analysis of the deposited data

Results flagged for a closer look

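The sex difference of 18 members changed between E14.5 and E16.5 by a direct test of the interaction of sex and age (edgeR adjusted p under 0.05). Shifts towards XX, as the log2 fold change XX over XY at E16.5 minus that at E14.5, were 2.46 for Epha6, 1.73 for Plxna4, 1.05 for Dcc, 0.92 for Sema3b, 0.90 for Efnb3, 0.89 for Epha7, 0.84 for Efna3, 0.79 for Slit2, 0.58 for Efnb2, Plxnc1 and Sema4g, 0.55 for Nrp1, 0.44 for Nrp2 and 0.41 for Ephb6. Shifts towards XY were -2.44 for Epha8, -0.89 for Ntn1, -0.58 for Sema5a and -0.53 for Plxna2. With each library left out in turn, 15 of the 18 kept their call every time, and Nrp2, Plxnc1 and Sema5a each lost it in 9 of the 12 fits (adjusted p up to 0.13, 0.098 and 0.1). Plxnc1 kept its call without E14.5 XY library 2, E16.5 XX library 3 and E16.5 XY library 1, and Nrp2 without E14.5 XX library 1, E16.5 XX library 3 and E16.5 XY library 2. Groups of 3 libraries are too small for an outlier test within a group.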

How the results depend on the processing

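No member's fold change reversed its direction among the members called by the main test or by an alternative. Counts of called members with 1 library left out ran from 3 to 12 at E14.5, against 10 with all libraries. They ran from 34 to 40 at E16.5 (40 with all), from 15 to 23 for the change of the sex difference (18), from 34 to 38 for age in XX (40), from 31 to 38 for age in XY (36) and from 22 to 29 in the uterus (27). Over all genes the shares called ran from 3.03 to 9.2% at E14.5 and from 19.8 to 31.5% at E16.5. The shares were 7.32 to 14.7% for the change of the sex difference, 28.8 to 35.4% and 18.4 to 21.5% for age in XX and XY, and 11.8 to 21.2% in the uterus. DESeq2 gave 12, 40, 24, 38, 37 and 31 in that order, beside 8.88, 24.6, 13.5, 35.7, 21.9 and 24.6% of all genes. DESeq2 size factors in edgeR, library size alone, no filter on low counts and a fit of only the libraries compared kept each count within 1.5 times the main one. Calls kept in every fit with 1 library left out numbered 3 of 10, 31 of 40, 15 of 18, 33 of 40, 28 of 36 and 22 of 27. With the replicate number as a block, the counts were 14, 44, 27, 40, 33 and 31. The block took no call away in either sex comparison, the interaction or the uterus, and took 3 calls away in each age comparison (Epha7, Plxnb1 and Sema6b in XX, and Epha4, Sema6c and Sema7a in XY). At E14.5, with age and in the uterus the numbers were not taken as pairs: same-numbered libraries correlated at 0.0504 to 0.0725 at E14.5, -0.027 to 0.00307 and -0.0813 to 0.0397 with age in XX and XY, and 0.00176 to 0.243 in the uterus. Every library correlated best with its own number at E14.5, a hint from the data alone, and not every library did so with age or in the uterus. The share of members with an ATAC-seq peak, 88.2% within 1 kb, was 73.5% for a peak over the start itself, 95.6% within 5 kb and 76.5% after dropping peaks narrower than the median. Among the tested members these shares were 79.4, 96.8 and 82.5%, beside 65.8, 87.8 and 72.1% of all tested genes. Depth limits the statements on Ephb1, Robo4 and Slit1, which stayed near or under 1 CPM, and on the members not tested.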
